A study of Mus musculus with 14 samples.

Results

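The epidermal growth factor (EGF) receptor ligands and their ErbB receptors were described in mouse ear skin 6 h after croton oil or vehicle. The 10 genes were taken by name from the 24035 genes listed for each sample, and all 10 passed the filter on low values, which kept 14693 genes. They were 6 ligands (Areg, Ereg, Hbegf, Epgn, Tgfa and Btc), 3 receptors (Egfr, Erbb2 and Erbb3) and the receptor inhibitor Errfi1. Values are TPM, a level corrected for transcript length and expressed relative to all transcripts of a sample, so that genes can be compared with each other.

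RNA came from whole ears of 14 mouse samples in 4 groups, and the mice of all groups had lost their Langerhans cells (LC). The groups were LC-DTA mice, with long-term LC ablation, painted with croton oil (n = 4), LC-DTA mice painted with vehicle (n = 3), LC-DTR mice, 3 days after diphtheria toxin (DT), painted with croton oil (n = 4), and LC-DTR mice painted with vehicle 3 days after DT (n = 3). The paint was 20 µl of 1% croton oil in acetone and olive oil at 4 to 1, or that mixture alone, spread over both faces of the ear. Transgenic lines known by these names place the toxin gene, or the toxin's receptor, under langerin control, so the ablation acts on langerin-expressing cells. No group with intact Langerhans cells and no unpainted ears were analysed here, and the labels used here give no age, sex or background strain. The labels do not say that the samples of a group are separate animals, so p-values measure the spread between these samples.

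The ligands of this family are made as membrane-anchored precursors and are released by cleavage, chiefly by the metalloproteases ADAM17 and ADAM10. Once released they bind EGFR, and betacellulin, epiregulin and HB-EGF also bind ErbB4, while ErbB2 binds no ligand of its own and acts as the partner of the others, and ErbB3 binds neuregulins and signals through that partner. In skin, EGFR signalling drives keratinocyte migration, growth and wound closure, and the ligands are well known to induce each other's transcription. ERRFI1, also called MIG6, binds the active EGFR kinase and shuts it off, and its gene is itself a target of EGFR signalling. Croton oil is an irritant rich in phorbol esters, activators of protein kinase C, and phorbol esters are classical triggers of ligand shedding. The human HB-EGF precursor is the natural receptor for diphtheria toxin, which rodent HB-EGF binds poorly, and a DTR transgene is such a primate coding sequence.

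Of the 6 ligand genes, 4 lie side by side on chromosome 5 of the mouse genome (RefSeq, GRCm38.p6), in the order Epgn (chr5:91027517-91035212, plus strand), Ereg (chr5:91074617-91093649, plus strand), Areg (chr5:91139599-91148432, plus strand) and Btc (chr5:91357261-91402994, minus strand). Tgfa lies on chromosome 6, Egfr and Erbb2 on chromosome 11, Erbb3 on chromosome 10 and Errfi1 at chr4:150853796-150868889 on the plus strand. RefSeq promoter sequences matched 7 of the 10 genes with 8 entries, and Ereg, Hbegf and Erbb3 have none here. The 250 bases before the annotated start are shown for the 3 genes with a motif match, all of which rose after croton oil. They are also shown for Btc, the cluster member without a call. Capitals mark TGACGTCA, the cAMP response element consensus, and TATAAA, the TATA box core. All sequences read 5′ to 3′ on the gene's strand.

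Areg (chr5:91139349-91139598, plus strand): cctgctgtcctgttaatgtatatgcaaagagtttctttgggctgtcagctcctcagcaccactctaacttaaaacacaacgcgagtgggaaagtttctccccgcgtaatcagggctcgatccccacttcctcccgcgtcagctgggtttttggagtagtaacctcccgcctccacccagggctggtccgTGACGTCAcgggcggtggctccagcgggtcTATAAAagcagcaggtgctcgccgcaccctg
Errfi1, second annotated start (chr4:150854820-150855069, plus strand): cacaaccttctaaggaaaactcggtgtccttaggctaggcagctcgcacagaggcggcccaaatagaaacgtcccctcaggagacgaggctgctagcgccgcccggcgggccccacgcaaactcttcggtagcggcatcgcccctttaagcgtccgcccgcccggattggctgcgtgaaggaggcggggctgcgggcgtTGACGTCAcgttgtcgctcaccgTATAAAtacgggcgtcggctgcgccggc
Epgn (chr5:91027267-91027516, plus strand): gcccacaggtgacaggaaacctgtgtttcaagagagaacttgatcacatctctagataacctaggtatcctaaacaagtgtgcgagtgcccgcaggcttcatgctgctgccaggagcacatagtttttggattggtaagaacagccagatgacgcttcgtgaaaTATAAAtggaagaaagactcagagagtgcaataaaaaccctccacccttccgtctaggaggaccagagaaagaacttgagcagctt
Btc (chr5:91402995-91403244, minus strand): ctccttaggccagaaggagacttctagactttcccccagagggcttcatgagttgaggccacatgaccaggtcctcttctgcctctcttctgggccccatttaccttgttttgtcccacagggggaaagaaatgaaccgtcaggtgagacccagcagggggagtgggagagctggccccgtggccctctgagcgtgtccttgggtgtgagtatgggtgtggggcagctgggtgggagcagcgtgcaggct

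TGACGTCA was found in 2 of the 7 genes, beginning 61 bases before the Areg start and 51 bases before the second Errfi1 start, and in 1.55% of all 32851 promoter entries. TATAAA was found in 3 of the 7 genes, 31 bases before the start of Areg, 28 before that of Errfi1 and 86 before that of Epgn, and in 12.4% of all entries. TGANTCA, the AP-1 consensus, was in 0 of the 7 genes and in 6.75% of all entries. The entries of Tgfa, which also rose after croton oil, and of the first annotated Errfi1 start held none of these motifs. Those of Egfr and Erbb2 held none either, and these entries are not shown. Both strands were searched, no matches of the different motifs overlapped in the sequences shown, and the matches describe these letters only.

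Each sample had 13733 to 14332 genes at 1 TPM or more. Cd207, the gene of langerin, averaged 0.529 TPM in LC-DTA croton oil ears, 0.290 TPM in LC-DTA vehicle ears, 1.18 TPM in LC-DTR croton oil ears and 0.259 TPM in LC-DTR vehicle ears. The keratinocyte genes that mark skin were abundant, the summed TPM of 9 basal keratinocyte genes lying between 8356 and 16770 in every sample. A list of 7 Langerhans cell genes summed to 877 to 1145 TPM in LC-DTA croton oil ears and 947 to 1400 TPM in LC-DTA vehicle ears. In LC-DTR ears these sums were 891 to 1139 TPM after croton oil and 609 to 818 TPM under vehicle. Several libraries stood apart from others of their group. LC-DTR vehicle replicate 3 had 3.26 TPM of the neutrophil chemokine Cxcl1, where replicates 1 and 2 had 29.9 and 46.4 TPM. It lay at 5.85 on the second principal component, where the other LC-DTR vehicle samples lay at -10.1 and -19.6. LC-DTR croton oil replicates 2 and 3 lay at 5.26 and 8.06 on the first principal component, where replicates 1 and 4 lay at 28.5 and 28.6, and their summed neutrophil genes were 348 and 268 TPM, where replicates 1 and 4 had 789 and 743 TPM.

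In ears painted with croton oil, 5 of the 6 ligands and Errfi1 rose in both genotypes, Btc did not pass the test in either, and no receptor rose. Of the 10 genes, 8 were called in LC-DTA mice, 6 higher and 2 lower, where 58.7% of all genes tested were called, 24.2% higher and 34.5% lower. Over all genes the higher calls made up 41.2% of the LC-DTA calls, and 51.6% after median ratio scaling. In LC-DTR mice 7 were called, 6 higher and 1 lower, where 51.6% of all genes tested were called, 22.1% higher and 29.5% lower. Croton oil and vehicle samples did not overlap for 7 of the 10 genes in each genotype, and for 63% of all genes tested in LC-DTA mice and 47.7% in LC-DTR mice. The median log2 difference of the 6 ligands was 2.20 in LC-DTA mice and 1.75 in LC-DTR mice, beside medians over all genes tested of -0.090 and -0.060. Calls are at an adjusted p under 0.05 in limma, fitted across all genes on log2(TPM + 1), and every log2 difference and its SE below is on that scale.

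**Figure D1:**
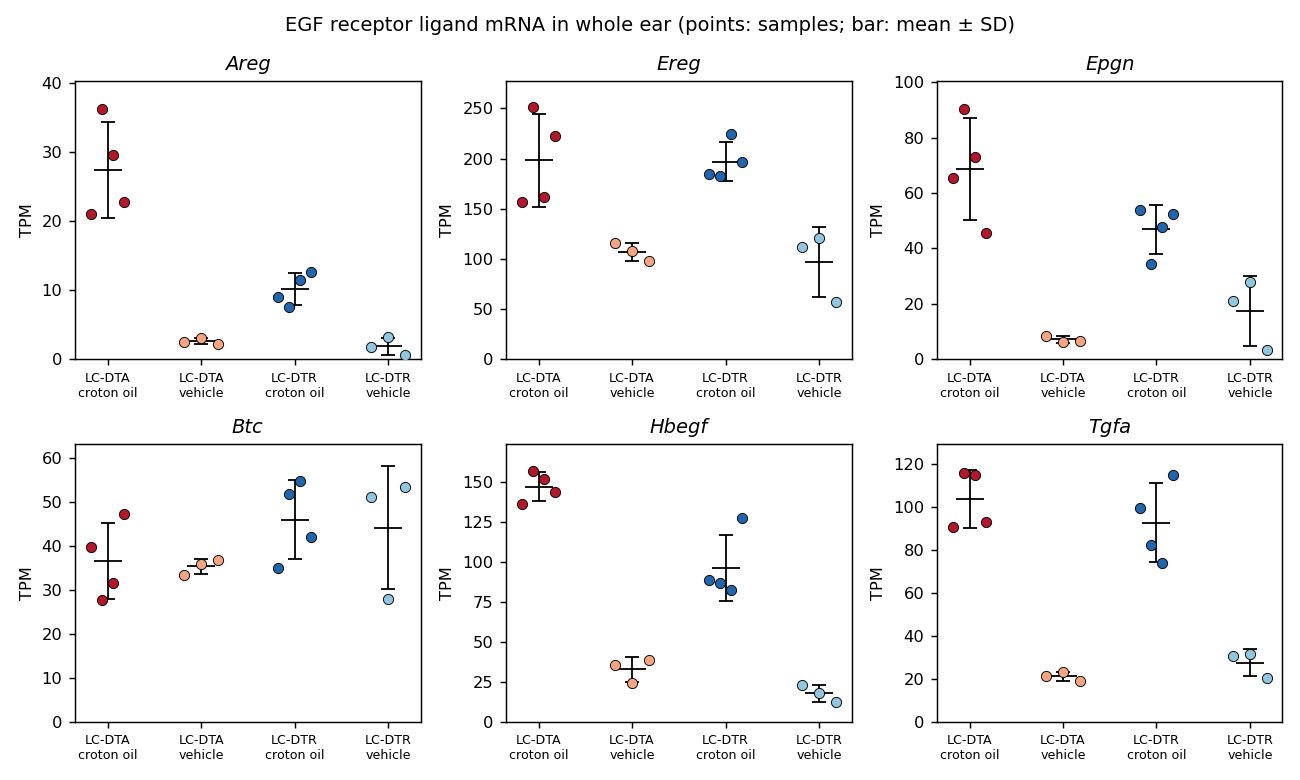
Each panel shows the TPM of a ligand (linear vertical axis from 0) in every ear sample, with the mean and SD of each of the 4 groups on the horizontal axis. In 5 panels the croton oil samples of a genotype lie above all of its vehicle samples, and in the Btc panel they overlap.

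Amphiregulin (Areg), an EGFR ligand of epithelia and of several leukocytes, was the least abundant ligand in vehicle ears. Areg had 21.0, 36.3, 29.7 and 22.7 TPM in LC-DTA croton oil ears, against 2.50, 3.04 and 2.19 TPM in LC-DTA vehicle ears. The groups did not overlap, and the ratio of mean TPM was 10.6. Its log2 difference was 2.97 ± 0.27 (SE; adjusted p = 2.42e-06, limma). In LC-DTR ears the values were 9.03, 7.49, 11.5 and 12.7 TPM in croton oil ears, against 1.75, 3.13 and 0.640 TPM in vehicle ears. The lowest of these vehicle values was replicate 3, the library that stood apart. The log2 difference in LC-DTR mice was 2.05 ± 0.27 (SE; adjusted p = 4.81e-05, limma), and 1.71 without that library.

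Epigen (Epgn), a low-affinity EGFR ligand of epithelia, was uneven in LC-DTR vehicle ears. It had 65.5, 90.4, 73.0 and 45.7 TPM in LC-DTA croton oil ears, against 8.48, 6.22 and 6.53 TPM in LC-DTA vehicle ears. The LC-DTR values were 53.7, 34.3, 47.6 and 52.3 TPM in croton oil ears, against 21.0, 27.7 and 3.18 TPM in vehicle ears. Croton oil samples lay above all vehicle samples in each genotype, and among LC-DTR vehicle samples replicate 3 was far below the other two. For Epgn the log2 difference was 3.08 ± 0.48 in LC-DTA mice (SE; adjusted p = 1.15e-04, limma) and 1.77 ± 0.48 in LC-DTR mice (SE; adjusted p = 0.00717, limma). Without LC-DTR vehicle replicate 3 the difference in LC-DTR mice was 0.91 ± 0.23 (SE; adjusted p = 0.00748, limma).

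Heparin-binding EGF-like growth factor (Hbegf) binds EGFR and heparan sulfate and is an early gene of wounded keratinocytes. Hbegf had 136, 157, 152 and 143 TPM in LC-DTA croton oil ears, against 35.3, 24.2 and 38.8 TPM in LC-DTA vehicle ears. Values in LC-DTR mice were 88.5, 86.7, 82.4 and 127 TPM in croton oil ears, against 23.0, 18.2 and 12.5 TPM in vehicle ears. No croton oil sample was below a vehicle sample of either genotype. The ratio of mean TPM was 4.49 in LC-DTA mice and 5.37 in LC-DTR mice. The log2 differences were 2.16 ± 0.20 (SE; adjusted p = 2.45e-06, limma) and 2.38 ± 0.20 (SE; adjusted p = 1.66e-06, limma) in LC-DTA and LC-DTR mice. The files do not show whether reads of the primate DTR sequence were counted as Hbegf, and this was not tested.

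Transforming growth factor alpha (Tgfa) is an autocrine EGFR ligand of keratinocytes. Tgfa had 90.7, 116, 115 and 93.1 TPM in LC-DTA croton oil ears, against 21.2, 23.2 and 19.0 TPM in LC-DTA vehicle ears. In LC-DTR mice Tgfa had 99.7, 82.5, 73.9 and 115 TPM in croton oil ears, against 30.6, 31.6 and 20.4 TPM in vehicle ears. The groups were separate in both genotypes, and within each group the samples differed by less than the groups did. Its log2 difference was 2.24 ± 0.17 in LC-DTA mice (SE; adjusted p = 8.54e-07, limma) and 1.72 ± 0.17 in LC-DTR mice (SE; adjusted p = 5.14e-06, limma).

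Epiregulin (Ereg), which activates EGFR and ErbB4, was the most abundant ligand on average in every group. It had the smallest log2 difference of the 5 ligands that rose, in both genotypes. Ereg had 157, 252, 161 and 223 TPM in LC-DTA croton oil ears, against 116, 108 and 97.3 TPM in LC-DTA vehicle ears. For LC-DTR mice the values were 184, 182, 225 and 196 TPM in croton oil ears, against 112, 121 and 57.0 TPM in vehicle ears. The ratio of mean TPM was 1.85 in LC-DTA mice and 2.04 in LC-DTR mice, again with no overlap. Its log2 difference was 0.86 ± 0.22 in LC-DTA mice (SE; adjusted p = 0.00450, limma) and 1.09 ± 0.22 in LC-DTR mice (SE; adjusted p = 0.00114, limma). Without LC-DTR vehicle replicate 3 the LC-DTR difference was 0.75 (adjusted p = 0.00299, limma).

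Betacellulin (Btc), which binds EGFR and ErbB4, had 39.7, 27.8, 31.6 and 47.3 TPM in LC-DTA croton oil ears, against 33.4, 35.996 and 36.7 TPM in LC-DTA vehicle ears. In LC-DTR mice Btc had 35.1, 51.9, 54.8 and 42.2 TPM in croton oil ears, against 51.1, 28.0 and 53.4 TPM in vehicle ears. The treatments overlapped in both genotypes. The Btc log2 difference was 0.020 in LC-DTA mice (95% interval -0.45 to 0.49; adjusted p = 0.944, limma) and 0.091 in LC-DTR mice (95% interval -0.38 to 0.56; adjusted p = 0.752, limma).

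The summed TPM of the 6 ligands was 510 to 679 in LC-DTA croton oil ears, against 200.3 to 217 in LC-DTA vehicle ears. In LC-DTR mice the sum was 445 to 545 in croton oil ears, against 147 to 239 in vehicle ears. By share of this sum, Ereg made up 33.8% ± 4.85 of the sum in LC-DTA croton oil ears (SD, n = 4), against 51.9% ± 2.92 in LC-DTA vehicle ears (SD, n = 3), and Btc made up 6.43% ± 1.93 of it, against 17.2% ± 1.58. In LC-DTR mice the Ereg share was 36.0% to 45.4% in croton oil ears, against 38.8% to 52.7% in vehicle ears, and the Btc share was 7.46% to 11.7%, against 12.2% to 36.3%. The Ereg shares of the treatments thus overlapped in LC-DTR mice and were separate in LC-DTA mice. Hbegf made up 25.4% ± 1.80 of the sum in LC-DTA croton oil ears, against 15.9% ± 3.65 in LC-DTA vehicle ears. In LC-DTR mice the Hbegf share was 19.6% ± 2.78 in croton oil ears (SD, n = 4), against 8.68% ± 0.869 in vehicle ears (SD, n = 3). These shares were not tested. The Hbegf share was higher in every croton oil sample than in every vehicle sample of the same genotype.

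**Figure D2:**
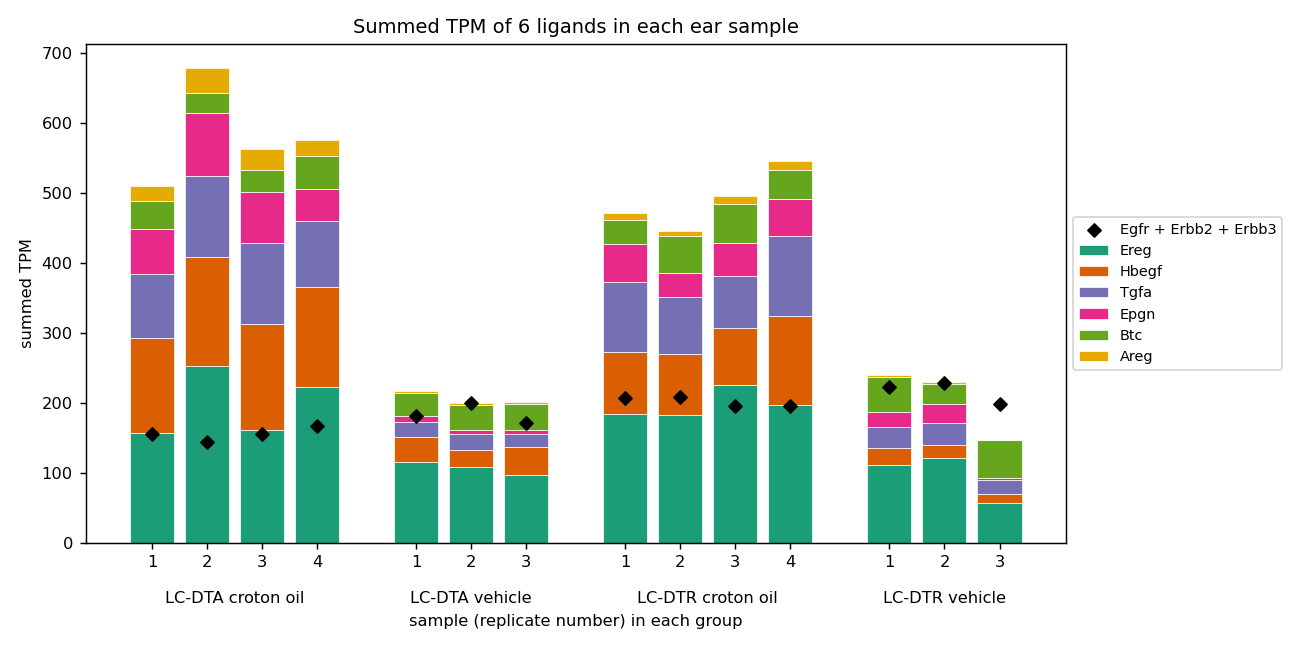
Stacked bars give the summed TPM of the 6 ligands in each ear sample (vertical axis from 0), with a colour for each ligand, and diamonds give the summed TPM of Egfr, Erbb2 and Erbb3. Ligand sums of 445 to 679 TPM in croton oil ears stand above those of 147 to 239 TPM in vehicle ears. The receptor sums are 144 to 167 TPM in LC-DTA croton oil ears, against 171 to 200 TPM in LC-DTA vehicle ears. In LC-DTR mice they are 195 to 209 TPM in croton oil ears, against 198 to 228 TPM in vehicle ears.

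Within the chromosome 5 cluster, the genes on the Epgn side also differed between treatments. These neighbours were picked by position after values had been seen. Cxcl1, a neutrophil chemokine gene, had a log2 difference of 3.89 ± 0.56 in LC-DTA mice (SE; adjusted p = 6.18e-05, limma) and 4.05 ± 0.56 in LC-DTR mice (SE; adjusted p = 7.24e-05, limma). Cxcl2, a related chemokine gene, rose by 2.11 ± 0.58 in LC-DTA mice and 3.12 ± 0.58 in LC-DTR mice. Without LC-DTR vehicle replicate 3, where Cxcl1 was at 3.26 TPM and Cxcl2 at 0.925 TPM, the LC-DTR differences were 2.99 ± 0.20 for Cxcl1 and 2.04 ± 0.26 for Cxcl2, both called. The Cxcl2 call in LC-DTA mice was lost without LC-DTA croton oil replicates 3 and 4 (1.82, adjusted p = 0.0595, limma). Mthfd2l, a mitochondrial folate enzyme gene next to Epgn, rose by 0.41 ± 0.082 and 0.33 ± 0.082. On the Btc side, Parm1 and Rchy1 had no call after croton oil in either genotype, and Cdkl2 was called in LC-DTR mice at -0.29 (adjusted p = 0.0495, limma), a call lost without LC-DTR vehicle replicate 3 (adjusted p = 0.0762) or LC-DTA croton oil replicates 3 and 4 (adjusted p = 0.0675).

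**Figure D3:**
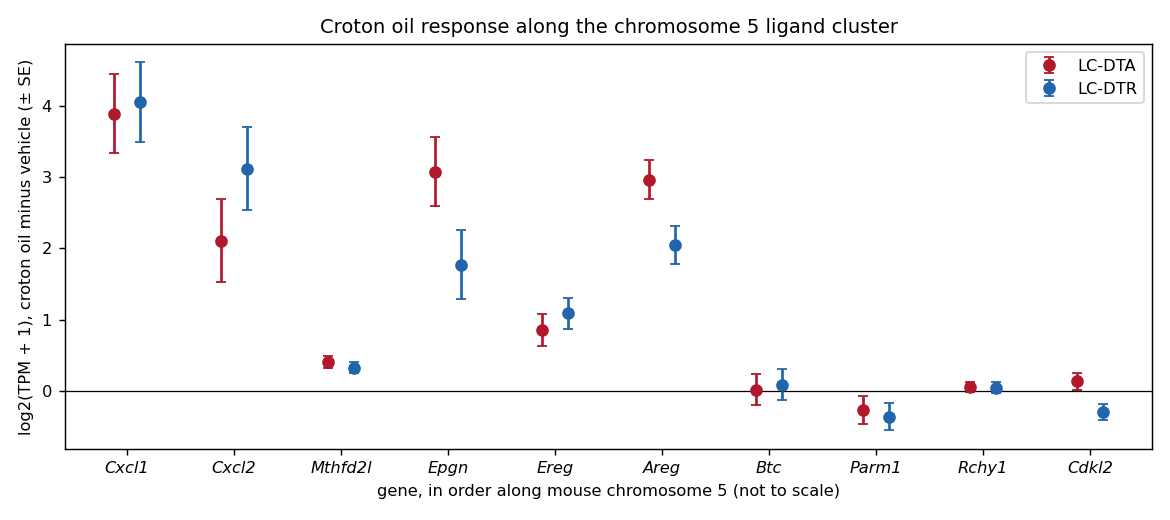
Log2 differences of croton oil minus vehicle (vertical axis, with bars of ± 1 SE) are shown for 10 genes in their order along chromosome 5, from Cxcl1 to Cdkl2, in LC-DTA and LC-DTR mice. Epgn, Ereg and Areg lie above 0 in both genotypes, and Btc, next in order, lies at 0.020 and 0.091.

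The 3 receptors lay between 42.3 and 99.1 TPM in every sample. Egfr, the gene of the receptor for all 6 ligands, had no call with all samples. It had 45.7, 48.2, 49.1 and 53.7 TPM in LC-DTA croton oil ears, against 50.04, 53.1 and 49.1 TPM in LC-DTA vehicle ears. In LC-DTR mice Egfr had 59.2, 45.2, 42.4 and 51.1 TPM in croton oil ears, against 48.7, 44.6 and 42.3 TPM in vehicle ears. The Egfr log2 difference was -0.046 in LC-DTA mice (95% interval -0.26 to 0.16) and 0.12 in LC-DTR mice (95% interval -0.091 to 0.33). Without LC-DTR croton oil replicates 2 and 3, Egfr in LC-DTR mice was called at 0.28 (adjusted p = 0.0188, limma).

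Erbb2, the gene of the partner receptor, fell in both genotypes. Erbb2 had 59.0, 50.7, 61.2 and 56.8 TPM in LC-DTA croton oil ears, against 67.5, 76.8 and 66.3 TPM in LC-DTA vehicle ears. In LC-DTR mice Erbb2 had 71.3, 64.3, 72.2 and 59.8 TPM in croton oil ears, against 94.0, 97.6 and 77.2 TPM in vehicle ears. The treatments did not overlap. The Erbb2 log2 difference was -0.30 ± 0.095 in LC-DTA mice (SE; adjusted p = 0.0158, limma) and -0.41 ± 0.095 in LC-DTR mice (SE; adjusted p = 0.00270, limma). The LC-DTA call was lost with median ratio scaling (-0.21, adjusted p = 0.0790) and without LC-DTA vehicle replicate 2 (-0.23, adjusted p = 0.0850), both in limma.

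Erbb3, the gene of a neuregulin receptor, fell in LC-DTA mice and had no call in LC-DTR mice. It had 51.0, 44.7, 45.0 and 56.3 TPM in LC-DTA croton oil ears, against 63.1, 70.2 and 55.5 TPM in LC-DTA vehicle ears. In LC-DTR mice Erbb3 had 76.5, 99.1, 80.1 and 83.9 TPM in croton oil ears, against 79.4, 85.6 and 78.8 TPM in vehicle ears. The LC-DTA treatments overlapped by 1 vehicle sample, and the LC-DTR treatments were mixed. The log2 difference was -0.35 ± 0.10 in LC-DTA mice (SE; adjusted p = 0.0103, limma) and 0.057 ± 0.10 in LC-DTR mice (SE; adjusted p = 0.666, limma). The difference between these was -0.41 (95% interval -0.72 to -0.092; adjusted p = 0.0597, limma) and so did not pass. The LC-DTA call was lost without LC-DTA vehicle replicate 2 (-0.27, adjusted p = 0.0636, limma).

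**Figure D4:**
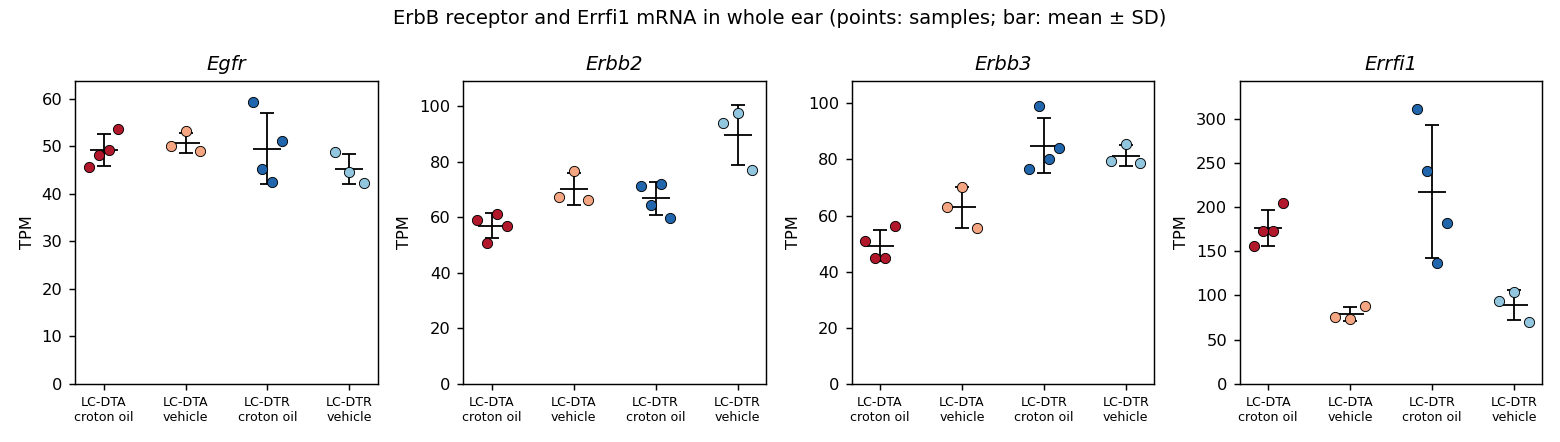
Each panel shows the TPM of a receptor or of Errfi1 (linear vertical axis from 0) in every ear sample, with the mean and SD of each of the 4 groups on the horizontal axis. Errfi1 lies at 137 to 312 TPM in croton oil ears and 69.9 to 104 TPM in vehicle ears, and Erbb3 lies lower in LC-DTA croton oil ears than in LC-DTR croton oil ears.

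Errfi1, the feedback inhibitor of the EGFR kinase, rose with the ligands. Errfi1 had 156, 173, 173 and 205 TPM in LC-DTA croton oil ears, against 75.4, 73.5 and 88.6 TPM in LC-DTA vehicle ears. In LC-DTR mice Errfi1 had 312, 241, 137 and 182 TPM in croton oil ears, against 93.8, 104 and 69.9 TPM in vehicle ears. All croton oil samples were above all vehicle samples, with the widest spread in LC-DTR croton oil ears. For Errfi1 the log2 difference was 1.14 ± 0.22 in LC-DTA mice (SE; adjusted p = 5.21e-04, limma) and 1.23 ± 0.22 in LC-DTR mice (SE; adjusted p = 4.16e-04, limma). The ratio of Errfi1 TPM to Egfr TPM was 3.41 to 3.81 in LC-DTA croton oil ears, against 1.39 to 1.81 in LC-DTA vehicle ears. In LC-DTR mice the ratio was 3.22 to 5.34 in croton oil ears, against 1.65 to 2.33 in vehicle ears.

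Genes that mark cell types were read beside these values. Of 12 neutrophil genes listed, 11 were found and 9 passed the filter. All 9 rose after croton oil in each genotype, where 24.2% of all genes tested rose in LC-DTA mice and 22.1% in LC-DTR mice. The filter admits a gene near 0 in vehicle ears only if it is high after croton oil, so this count is not independent of the filter. The neutrophil list summed to 469 to 699 TPM in LC-DTA croton oil ears, against 37.2 to 70.1 TPM in LC-DTA vehicle ears. In LC-DTR mice it summed to 268 to 789 TPM in croton oil ears, against 28.0 to 71.5 TPM in vehicle ears. Of the 9 basal keratinocyte genes, 3 rose and 5 fell in LC-DTA mice, with sums of 11390 to 13394 TPM in croton oil ears, against 14174 to 14274 TPM in vehicle ears. In LC-DTR mice 2 rose and 5 fell, with sums of 8356 to 10623 TPM in croton oil ears, against 14880 to 16770 TPM in vehicle ears. The share of all genes tested that fell was 34.5% in LC-DTA mice and 29.5% in LC-DTR mice. Of 11 monocyte and macrophage genes, 6 rose and 3 fell in LC-DTA mice, with sums of 1537 to 1912 TPM in croton oil ears, against 941 to 1211 TPM in vehicle ears, and 4 rose in LC-DTR mice, with sums of 553 to 714 TPM in croton oil ears, against 464 to 729 TPM in vehicle ears. Of 8 fibroblast genes, 4 fell in LC-DTA mice, with sums of 4864 to 6479 TPM in croton oil ears, against 7494 to 9315 TPM in vehicle ears. In LC-DTR mice 1 rose, with sums of 2384 to 3456 TPM in croton oil ears, against 2321 to 5236 TPM in vehicle ears. Of 6 Langerhans cell genes tested, 2 rose and 4 fell in LC-DTA mice, and 2 rose in LC-DTR mice. Cd207, below the filter, is not among these. No marker of these lists was at 0 in all samples. Their part in the family's differences was not tested, and in whole ears fewer cells of a type and less RNA per cell cannot be told apart.

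The genotypes were then compared within each treatment. LC-DTA and LC-DTR mice differ at once in transgene, in the length of LC loss and in DT, which only the LC-DTR labels name. These cannot be told apart here, and a genotype difference below means all of them together. Of the 10 genes, 4 were called after croton oil, 2 higher and 2 lower in LC-DTA, where 52.3% of all genes tested were called, 34.3% higher and 18% lower. Under vehicle 3 were called, 1 higher and 2 lower in LC-DTA, where 24.5% of all genes tested were called, 19.1% higher and 5.34% lower. The genotypes did not overlap for 3 of the 10 genes after croton oil and 4 under vehicle, and for 45.2% and 42.5% of all genes tested. Over all genes the split depended on scaling: the calls higher in LC-DTA made up 65.6% after croton oil and 78.2% under vehicle, but 49.8% and 50.3% with median ratio scaling, while the members' calls held. Hbegf was higher in LC-DTA ears under both treatments, Areg was called higher after croton oil, and Erbb2 and Erbb3 were lower in LC-DTA ears under both.

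Areg averaged 27.4 ± 7.001 TPM in LC-DTA croton oil ears and 10.2 ± 2.35 TPM in LC-DTR croton oil ears (SD, n = 4 each). The lowest LC-DTA sample, at 21.0 TPM, was above the highest LC-DTR sample, at 12.7 TPM. The log2 difference was 1.34 ± 0.25 (SE; adjusted p = 5.57e-04, limma). Under vehicle Areg averaged 2.57 ± 0.433 TPM in LC-DTA ears and 1.84 ± 1.249 TPM in LC-DTR ears (SD, n = 3 each), with a log2 difference of 0.42 (95% interval -0.19 to 1.04; adjusted p = 0.302, limma), or 0.078 without LC-DTR vehicle replicate 3.

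Hbegf averaged 147 ± 9.12 TPM in LC-DTA croton oil ears and 96.2 ± 20.8 TPM in LC-DTR croton oil ears (SD, n = 4 each), a log2 difference of 0.63 ± 0.18 (SE; adjusted p = 0.0102, limma). Under vehicle it averaged 32.8 ± 7.63 TPM in LC-DTA ears and 17.9 ± 5.28 TPM in LC-DTR ears (SD, n = 3 each), a log2 difference of 0.85 ± 0.21 (SE; adjusted p = 0.0103, limma). The genotypes were separate under both treatments. The call after croton oil was lost without LC-DTR croton oil replicates 2 and 3 (0.46, adjusted p = 0.112, limma) and without LC-DTA croton oil replicates 3 and 4 (0.62, adjusted p = 0.0552, limma). The call under vehicle was lost without LC-DTA vehicle replicate 3 (0.72, adjusted p = 0.0523, limma).

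Markers of several cell types also differed between the genotypes. After croton oil 9 of 11 monocyte and macrophage genes, 6 of 8 fibroblast genes and 9 of 12 basophil and mast cell genes were called higher in LC-DTA ears, beside 34.3% of all genes tested. The monocyte and macrophage genes summed to 1537 to 1912 TPM in LC-DTA croton oil ears and 553 to 714 TPM in LC-DTR croton oil ears. The fibroblast sums were 4864 to 6479 TPM in LC-DTA and 2384 to 3456 TPM in LC-DTR croton oil ears, and the basophil and mast cell sums were 411 to 522 TPM in LC-DTA and 214 to 339 TPM in LC-DTR croton oil ears. Under vehicle 7 of 11, 7 of 8 and 9 of 12 genes of these lists were called higher in LC-DTA ears, beside 19.1% of all genes tested. Of 6 Langerhans cell genes tested, 4 were called higher in LC-DTA ears under vehicle and 0 after croton oil. Cd207 was below the filter and is not among them. Under vehicle it had 0.0567 to 0.654 TPM in LC-DTA ears and 0.105 to 0.474 TPM in LC-DTR ears. After croton oil Cd207 had 0.405 to 0.722 TPM in LC-DTA ears and 0.362 to 1.88 TPM in LC-DTR ears. The part of these cells in the Areg and Hbegf differences was not tested.

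Erbb3 averaged 49.2 ± 5.53 TPM in LC-DTA croton oil ears and 84.9 ± 9.92 TPM in LC-DTR croton oil ears (SD, n = 4 each), with no overlap and a log2 difference of -0.77 ± 0.096 (SE; adjusted p = 2.94e-05, limma). Under vehicle it averaged 63.0 ± 7.33 TPM in LC-DTA ears and 81.3 ± 3.74 TPM in LC-DTR ears (SD, n = 3 each), a log2 difference of -0.37 ± 0.11 (SE; adjusted p = 0.0268, limma). ErbB3 is also a receptor of Schwann cells and melanocytes. The 11 listed genes of those cells summed to 344 to 387 TPM in LC-DTA croton oil ears and 209 to 311 TPM in LC-DTR croton oil ears, and to 461 to 560 TPM in LC-DTA vehicle ears and 274 to 343 TPM in LC-DTR vehicle ears. The 10 suprabasal keratinocyte genes summed to 32184 to 36674 TPM in LC-DTA croton oil ears and 37514 to 42305 TPM in LC-DTR croton oil ears. Under vehicle they summed to 33636 to 36014 TPM in LC-DTA ears and 42573 to 49980 TPM in LC-DTR ears. The 9 basal keratinocyte genes summed to 11390 to 13394 TPM in LC-DTA croton oil ears and 8356 to 10623 TPM in LC-DTR croton oil ears. Their sums under vehicle were 14174 to 14274 TPM in LC-DTA ears and 14880 to 16770 TPM in LC-DTR ears. The part of any of these cells in the Erbb3 differences was not tested.

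Erbb2 averaged 56.9 ± 4.54 TPM in LC-DTA croton oil ears and 66.9 ± 5.89 TPM in LC-DTR croton oil ears (SD, n = 4 each), with 1 LC-DTR sample inside the LC-DTA range and a log2 difference of -0.23 ± 0.088 (SE; adjusted p = 0.0431, limma). Under vehicle it averaged 70.2 ± 5.72 TPM in LC-DTA ears and 89.6 ± 10.9 TPM in LC-DTR ears (SD, n = 3 each), a log2 difference of -0.34 ± 0.10 (SE; adjusted p = 0.0257, limma). The Erbb2 call after croton oil was lost in 8 of 14 fits that left out a sample, with adjusted p of 0.0226 to 0.135. The vehicle calls of Erbb2 and Erbb3 were lost without LC-DTA vehicle replicate 1 or 3 or LC-DTR vehicle replicate 2, and that of Erbb2 also without LC-DTR vehicle replicate 1, with adjusted p up to 0.121 for Erbb2 and 0.123 for Erbb3.

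The other genes had no genotype call with all samples. Ereg averaged 198 ± 46.7 TPM in LC-DTA croton oil ears and 197 ± 19.6 TPM in LC-DTR croton oil ears (SD, n = 4 each), and the interval of the log2 difference was -0.46 to 0.42. Egfr averaged 49.2 ± 3.36 TPM in LC-DTA croton oil ears and 49.5 ± 7.45 TPM in LC-DTR croton oil ears, with an interval of -0.19 to 0.19. Under vehicle Egfr had 49.1 to 53.1 TPM in LC-DTA ears and 42.3 to 48.7 TPM in LC-DTR ears. Those groups did not overlap, without a call (0.165, adjusted p = 0.270, limma). Errfi1 averaged 177 ± 20.6 TPM in LC-DTA croton oil ears and 218 ± 75.7 TPM in LC-DTR croton oil ears, with an interval of -0.67 to 0.19. It was called, at -0.44 (adjusted p = 0.0453, limma), when LC-DTR croton oil replicate 3 was left out. Epgn under vehicle averaged 7.08 ± 1.22 TPM in LC-DTA ears and 17.3 ± 12.7 TPM in LC-DTR ears (SD, n = 3 each), a log2 difference of -0.79 ± 0.51 (SE; adjusted p = 0.284, limma). Without LC-DTR vehicle replicate 3 it was -1.65 ± 0.25 (SE; adjusted p = 7.5e-04, limma), Tgfa under vehicle was called at -0.54 (adjusted p = 0.0292, limma), and Epgn was called after croton oil at 0.52 (adjusted p = 0.0363, limma).

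**Figure D5:**
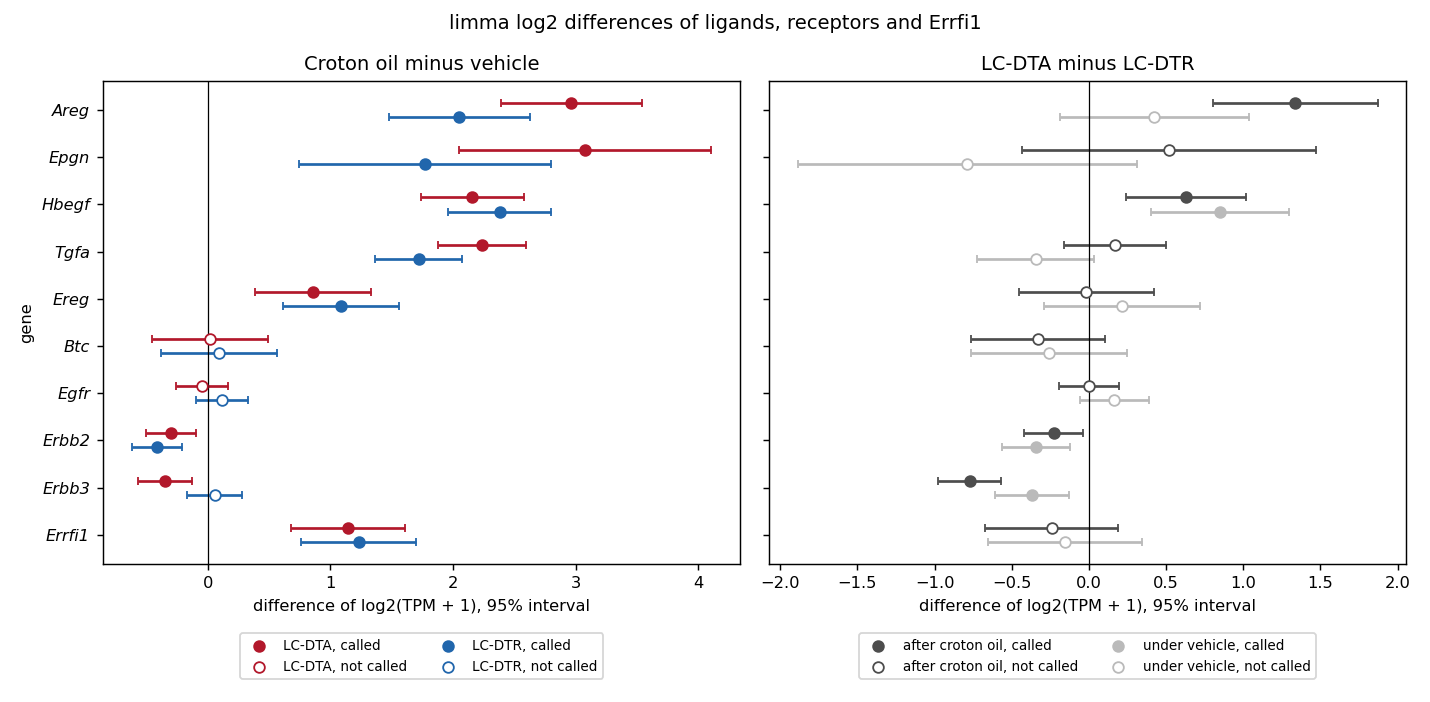
The log2 differences of the 10 genes are drawn with 95% intervals (horizontal axes), for croton oil minus vehicle in each genotype on the left and LC-DTA minus LC-DTR under each treatment on the right, with filled points for calls. On the left Areg, Epgn, Hbegf, Tgfa, Ereg and Errfi1 are filled in both genotypes, and on the right Hbegf, Erbb2 and Erbb3 are filled under both treatments.

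Whether the response to croton oil differed between the genotypes was tested for each gene. With all samples 0 of the 10 genes were called in limma, where 23.1% of all genes tested were called (10.5% higher and 12.6% lower), and 3 genes had an unadjusted p under 0.05. The log2 difference of Areg was larger in LC-DTA mice by 0.91 (95% interval 0.10 to 1.73; adjusted p = 0.0961, limma). Tgfa had a difference of responses of 0.51 (95% interval 0.011 to 1.02; adjusted p = 0.128, limma), and Erbb3 one of -0.41, given above. Epgn had the largest estimate, 1.30 ± 0.68 (SE; adjusted p = 0.179, limma). Without LC-DTR vehicle replicate 3, Areg (1.26, adjusted p = 0.0162, limma), Epgn (2.17, adjusted p = 0.00124, limma) and Tgfa (0.71, adjusted p = 0.0314, limma) were called. With all samples, Areg was also called at a pseudocount of 5 (0.92, adjusted p = 0.0124, limma). Other fits went the other way. Leaving out 1 sample at a time gave 0.59 to 1.26 for Areg, 0.78 to 2.17 for Epgn and 0.40 to 0.71 for Tgfa. The highest adjusted p in those fits was 0.228 for Areg, 0.405 for Epgn and 0.264 for Tgfa (limma). Over all alternatives the adjusted p of Areg reached 0.342 (limma).

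Other genes of the pathway were read from lists. Of 6 further ErbB ligands and receptors, 4 could be tested, and 1 rose after croton oil in each genotype, where 24.2% of all genes tested rose in LC-DTA mice and 22.1% in LC-DTR mice. It was neuregulin 1 (Nrg1), a ligand of ErbB3 and ErbB4, with 4.49 to 7.55 TPM in LC-DTA croton oil ears, against 2.23 to 3.21 TPM in LC-DTA vehicle ears. In LC-DTR mice Nrg1 had 3.09 to 6.83 TPM in croton oil ears, against 0.659 to 2.17 TPM in vehicle ears. Its log2 difference was 1.00 ± 0.24 in LC-DTA mice (SE; adjusted p = 0.00267, limma) and 1.33 ± 0.24 in LC-DTR mice (SE; adjusted p = 4.65e-04, limma). Nrg2, another neuregulin gene, was lower in LC-DTA ears than in LC-DTR ears, by -0.71 after croton oil (adjusted p = 7.60e-05, limma) and -0.44 under vehicle (adjusted p = 0.0141, limma). Egf itself had 1.04 to 1.85 TPM over all samples and no call, and Erbb4 was below the filter, at group means of 0.136 to 0.248 TPM.

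Of 11 genes for ligand shedding and trafficking, 3 rose and 4 fell in LC-DTA mice, and 4 rose and 1 fell in LC-DTR mice. The share of all genes tested that was called was 58.7% in LC-DTA mice and 51.6% in LC-DTR mice, so 7 and 5 of 11 are near the background. Their median log2 differences were -0.011 and 0.0031, beside -0.090 and -0.060 over all genes tested. Adam17, the gene of the main sheddase of these ligands, had 60.4, 66.7, 68.0 and 71.4 TPM in LC-DTA croton oil ears, against 48.7, 49.1 and 48.3 TPM in LC-DTA vehicle ears. In LC-DTR mice Adam17 had 56.7, 52.7, 55.8 and 53.8 TPM in croton oil ears, against 57.7, 58.8 and 54.1 TPM in vehicle ears. The groups were separate in LC-DTA mice and overlapped in LC-DTR mice. The log2 difference was 0.44 ± 0.059 in LC-DTA mice (SE; adjusted p = 3.54e-05, limma) and -0.053 ± 0.059 in LC-DTR mice (SE; adjusted p = 0.478, limma). The difference of the responses was 0.50 ± 0.084 (SE; adjusted p = 0.00177, limma). Of the 11 genes, 3 were called in the difference of responses, near the 23.1% of all genes tested.

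Rhbdf1, which encodes the inactive rhomboid iRHOM1, a partner that brings ADAM17 to the cell surface, averaged 70.2 ± 3.81 TPM in LC-DTA croton oil ears (SD, n = 4) and 98.2 ± 6.60 TPM in LC-DTA vehicle ears (SD, n = 3). In LC-DTR mice it averaged 89.6 ± 6.04 TPM in croton oil ears (SD, n = 4) and 89.7 ± 10.1 TPM in vehicle ears (SD, n = 3). Its difference of responses was -0.48 ± 0.11 (SE; adjusted p = 0.00985, limma). Adam8, the gene of a leukocyte metalloprotease, rose by 1.85 ± 0.15 in LC-DTA mice and 1.88 ± 0.15 in LC-DTR mice on the log2 scale. Adam12, the gene of a further sheddase, had group means of 0.306 to 1.88 TPM. It had 1.51 to 2.30 TPM in LC-DTA and 0.224 to 0.376 TPM in LC-DTR croton oil ears. Under vehicle it had 1.35 to 1.79 TPM in LC-DTA and 0.288 to 1.02 TPM in LC-DTR ears. The log2 differences between genotypes were 1.13 after croton oil and 0.66 under vehicle. Adam12 passed the filter only through its LC-DTA samples, so these differences are descriptive only.

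Of 22 genes for receptor turnover and inhibition, 8 rose and 5 fell in LC-DTA mice, and 7 rose and 4 fell in LC-DTR mice, with median log2 differences of 0.050 in each, beside -0.090 and -0.060 over all genes tested. With 58.7% and 51.6% of all genes called, 13 and 11 of 22 are near the background. In the difference of responses 5 of the 22 were called, near the 23.1% of all genes tested. Named members moved in both directions. Lrig1, whose product sends ErbB receptors to degradation, fell to 22.2 ± 1.28 TPM in LC-DTA croton oil ears, against 37.8 ± 0.558 TPM in LC-DTA vehicle ears (SD, n = 4 and 3). In LC-DTR mice it averaged 23.9 ± 1.04 TPM in croton oil ears and 34.4 ± 1.96 TPM in vehicle ears, and the log2 differences were -0.75 and -0.50. Lrig3, a relative of Lrig1, fell by 1.31 in LC-DTA mice and by 0.76 in LC-DTR mice, and the difference of responses was -0.54 ± 0.17 (SE; adjusted p = 0.0337, limma). That call was lost without LC-DTR vehicle replicate 3 (-0.45, adjusted p = 0.0828), LC-DTR croton oil replicates 2 and 3 (-0.48, adjusted p = 0.0974) or LC-DTA croton oil replicates 3 and 4 (-0.36, adjusted p = 0.133), all in limma.

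Cblb encodes a ubiquitin ligase that targets activated receptors, and Socs5 encodes a suppressor that promotes EGFR degradation. Cblb rose in LC-DTR mice by 0.91 ± 0.090 (SE; adjusted p = 6.40e-06, limma), and its log2 difference in LC-DTA mice was 0.21 ± 0.090 (SE; adjusted p = 0.0568, limma). The difference of responses was -0.70 ± 0.13 (SE; adjusted p = 0.00237, limma). Socs5 rose in both genotypes, by 1.42 ± 0.16 in LC-DTA mice and 0.63 ± 0.16 in LC-DTR mice, with a difference of responses of 0.79 ± 0.22 (SE; adjusted p = 0.0215, limma), a call lost without LC-DTA croton oil replicates 3 and 4 (0.79, adjusted p = 0.0582). It averaged 52.0 ± 5.73 TPM in LC-DTA croton oil ears and 28.1 ± 6.65 TPM in LC-DTR croton oil ears (SD, n = 4 each).

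Of 22 genes of the Ras-ERK cascade, which carries the receptor signal to the nucleus, 5 rose and 6 fell in LC-DTA mice, and 8 rose and 6 fell in LC-DTR mice. With 58.7% and 51.6% of all genes called, 11 and 14 of 22 are close to the background. Mapk3, which encodes the kinase ERK1, fell by 0.55 in LC-DTA mice and by 0.41 in LC-DTR mice. Plcg1, the gene of a phospholipase recruited by EGFR, fell by 0.63 and by 0.42. Nras, a Ras gene, rose by 0.38 and 0.45, and Rasa1, the gene of a Ras-inactivating protein, rose by 0.33 and 0.60. In the difference of responses 0 of these 22 genes were called in limma, where 23.1% of all genes tested were, and 5 had an unadjusted p under 0.05. Over the 4 lists, 109 calls were made in the 5 comparisons, of which 15 were lost and 0 changed sign under median ratio scaling or quantile normalization.

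The genes whose profiles over the 14 samples were nearest to those of 4 members were found by the root mean square difference of standardised log2(TPM + 1), among 10933 genes. For Areg these were Tmem185b (0.183), Hsph1 (0.186) and Heatr3 (0.187), and for Hbegf they were Pak1ip1 (0.0986), Nmd3 (0.151) and Cdca4 (0.155). Ereg was nearest to Mief1 (0.288), Zbtb11 (0.291) and Usp16 (0.317), and Errfi1 to Spidr (0.249), Camk2d (0.270) and Ppp2ca (0.271). The nearest profile to Areg, Tmem185b, averaged 26.9 TPM in LC-DTA croton oil ears, 11.4 TPM in LC-DTA vehicle ears, 18.8 TPM in LC-DTR croton oil ears and 10.02 TPM in LC-DTR vehicle ears. No other member was among these nearest genes, and the samples share their groups and libraries.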

How the data were processed

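Gene expression was measured in 14 whole ear samples of mice. Qiagen RNeasy extraction and the Illumina TruSeq Stranded mRNA kit were used, per the labels' protocols. Cutadapt, HISAT2, Subread, featureCounts and the build mm10 appear in the submitters' processing notes. Versions, the annotation, the strand setting and the TPM formula were not given in the sources used here. The authors deposited TPM, which keep no depth, so no counting error is given. Of 24062 rows, 27 named as dates (0.124 to 0.145% of the TPM) were left out, and 0 sample columns were unassigned. No identical pairs of samples were found.

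Genes with at least 1 TPM in at least 3 samples (14693; 9342 fell below) were transformed to log2(TPM + 1), which understates changes of low genes, and entered a single limma model (limma 3.58.1, R 4.3.3) of 4 group means with all 14 samples and a mean-variance trend. Benjamini-Hochberg adjustment ran over all genes in each of 5 comparisons, with two-sided p-values. The fit was tested on simulated data. Python 3.11.15, pandas 2.3.3 and matplotlib 3.10.9 were also used.

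The members, lists and tests were chosen with earlier results of these data known. Named were the 10 members, up to 4 genes with the lowest p of each pathway list, with Erbb4, Egf and Adam17 always, up to 3 genes of each cell type list, and the 3 nearest profiles of 4 members. The chromosome 5 neighbours were chosen after values were seen. Alternatives were pseudocounts of 0.1 and 5, no filter or 5 TPM, median ratio scaling, quantile normalization, limma without trend or with robust estimation, a replicate block, only the compared groups, and leaving out samples. For neighbours and pathway genes, leaving out LC-DTR vehicle replicate 3, LC-DTR croton oil replicates 2 and 3, or LC-DTA croton oil replicates 3 and 4 was added after seeing the data. The last pair has label numbers 10796 and 10797, where LC-DTA croton oil replicates 1 and 2 have 10601 and 10602. On the first principal component that pair lay at 41.0 and 32.7, where replicates 1 and 2 lay at 28.3 and 37.0.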

Additional observations from a re-analysis of the deposited data

Results flagged for a closer look

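Among the values of the 10 genes, Hbegf in LC-DTR croton oil ears held a sample far from the others of its group. Replicate 4 had 127.12 TPM, and the other 3 samples had 82.4 to 88.5 TPM, a gap larger relative to the group's range than Dixon's 95% critical value for 4 samples. Chance sets apart about 1 in 20 groups in this way, and each of the 10 genes was screened in both croton oil groups. Vehicle groups, of 3 samples each, were not screened. Among them, Epgn in LC-DTR vehicle replicate 3 had 3.18 TPM, against 21.0 and 27.7 TPM in replicates 1 and 2.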

How the results depend on the processing

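Over 1290 recalculations of 50 gene results, 1220 kept their direction and side of the threshold, 28 lost a call, 12 gained one and 30 changed sign, and none of the sign changes was of a called value. In both genotypes the croton oil calls of Areg, Ereg, Hbegf, Epgn, Tgfa and Errfi1 held under every alternative run. After croton oil the genotype comparison had 2 genes called, against 4 with all samples, without LC-DTA croton oil replicates 3 and 4 and also without LC-DTR croton oil replicates 2 and 3. With a pseudocount of 5, 1 gene (Areg, 0.92, adjusted p = 0.0124, limma) was called in the difference of responses. Leaving out 1 sample at a time gave 3 to 5 members called between genotypes after croton oil, 0 to 5 under vehicle and 0 to 3 in the difference of responses. Over all genes it gave 1780 to 3775 calls under vehicle, against 3595 with all samples, with 1780 without LC-DTR vehicle replicate 2 and 2123 without LC-DTA vehicle replicate 3. It gave 2220 to 3575 calls in the difference of responses, against 3389, with 2220 without LC-DTA vehicle replicate 2. The causes were not tested.

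Sign changes of uncalled values in LC-DTA croton oil responses were Egfr 0.041 with median ratio scaling, and Btc -0.028 with the replicate block and -0.087 without LC-DTA croton oil replicates 3 and 4. In LC-DTR responses they were Erbb3 -0.00118 with quantile normalization, and Btc -0.14 and Erbb3 -0.019 without LC-DTR croton oil replicates 2 and 3. Between genotypes after croton oil they were Ereg 0.017 without LC-DTA replicates 3 and 4, and Ereg 0.029 and Tgfa -0.055 without LC-DTR replicates 2 and 3, which also gave Btc 0.16 in the difference of responses. Leaving out 1 sample gave ranges that crossed 0 for Btc in LC-DTA (-0.11 to 0.14) and LC-DTR responses (-0.20 to 0.25), for Erbb3 in LC-DTR responses (-0.019 to 0.10), and after croton oil between genotypes for Ereg (-0.14 to 0.086) and Egfr (-0.069 to 0.089). Ereg under vehicle spanned -0.12 to 0.41. In the difference of responses Btc spanned -0.23 to 0.22, Errfi1 -0.29 to 0.11, Ereg -0.43 to 0.11 and Hbegf -0.42 to 0.0014.

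The labels do not say that replicate numbers pair the samples. Of 19 same-numbered pairs 2 had a correlation of deviations over 0.1, in a range of -0.315 to 0.126. Differently numbered pairs were not compared, so this check cannot exclude pairing. With the replicate number as a block 7733, 6445, 7048, 2879 and 2660 genes were called in the 5 comparisons, and among members Erbb2 lost its call in LC-DTA mice (-0.27, adjusted p = 0.0507, limma) and between genotypes after croton oil (-0.23, adjusted p = 0.0680, limma). Erbb2 between genotypes after croton oil was also lost with no filter (adjusted p = 0.0589) and without the trend (adjusted p = 0.0533), and under vehicle with only the compared groups (adjusted p = 0.0524), all in limma. Erbb3 in the difference of responses was called without LC-DTA croton oil replicate 4 (adjusted p = 0.0321), LC-DTA vehicle replicate 3 (0.0398) or LC-DTR croton oil replicate 1 (0.0445). Median ratio scaling and quantile normalization moved the median of all genes under vehicle by -0.11, relative to which the genotype calls of Hbegf, Erbb2 and Erbb3 held. The share of calls that were higher in LC-DTA was 65.6% after croton oil and 78.2% under vehicle, against 49.8% and 50.3% with median ratio scaling and 50.1% and 47.7% with quantile normalization. Depth is unknown, so sampling noise in the low values of Areg could not be given.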
